A study of Sus scrofa with 36 samples.

Results

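Oxidative phosphorylation was examined through 83 of the 20683 genes in a pig RNA-seq table. A gene was taken by its name alone: the NDUF, SDHA to SDHD, UQCR, COX4 to COX8 and ATP5 families, which nuclear DNA encodes. By role they were 7 core and 30 accessory subunits of complex I, 8 complex I assembly factors, 4 subunits of complex II, 2 of complex III, 10 of complex IV and 22 genes of the ATP synthase. Of the ATP synthase genes, ATP5IF1, ATP5S and ATP5SL do not encode subunits. Other subunit genes whose names fall outside these families, and the genes of the mitochondrial genome, were not analysed here. Genes of these families without an entry under such a name, COX4I1 among them, are not covered either. Complex III is represented by UQCRB and UQCR10 alone.

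Complexes I and II pass electrons from NADH and succinate to ubiquinone, complex III passes them to cytochrome c, and complex IV passes them to oxygen. Complexes I, III and IV pump protons while they do so, and the ATP synthase uses the resulting gradient to make ATP. Heart muscle is rich in mitochondria and carries tissue forms of some complex IV subunits, whereas pluripotent cells and neural progenitors are known for a high rate of glycolysis.

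The study sequenced 36 bulk libraries of pig cells in 11 groups: fibroblasts, induced pluripotent stem cells (iPSCs, cells reprogrammed to an embryo-like state) described as free of the reprogramming transgenes, and cells differentiated from 1 iPSC clone. Clone 1 was PiPS-EP1 minusPD c4 p11 with 3 libraries, numbered 2 to 4. Clone 2, PiPS-EP5 minusPD minusA83 c12 p10, and clone 3, PiPS-EP5 minusPD minusA83 c18 p15, had 4 libraries each, as did the fibroblasts. A further clone, PiPSC clone 8, was the source of all differentiated cells, with 3 libraries per group: undifferentiated cells on day 0 after the mouse feeder layer was taken away, primitive streak or mesendoderm on day 1 (in E8A100ch3), presomitic mesoderm on day 2 (in S1LDN), somite on day 3 (in S2LDN), endothelial cells on day 6, beating cardiomyocytes on day 9 and neural progenitors on day 24. Each line is 1 clone, and the labels give no strain, age or number of animals, so clone and donor effects cannot be told apart. By name, clone 1 (EP1, minusPD) also differs from clones 2 and 3 (EP5, minusPD and minusA83). The p numbers differ as well (p11, p10 and p15). Effects of line, culture or passage that these names stand for cannot be told apart from clone in any comparison between the clones. The labels do not say whether replicates were grown separately, so p-values measure only the spread between these libraries, which may be technical.

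Total estimated counts per library ran from 1845333 in neural progenitor library 3 to 69879325 in clone 2 library 3. Fibroblast libraries 1 and 2 held 36738189 and 26120236 counts and libraries 3 and 4 held 7508792 and 6877298, and the 2 pairs differed in many genes of the set. The defining markers followed the labels in the fibroblast, iPSC, day 1, day 2 and endothelial groups, but the 4 somite markers together stood at 23.9 to 32.2 TPM (transcripts of a gene scaled to a fixed total per library) on day 3 and at 29.5 to 37.3 in endothelial cells. Cardiomyocyte library 2 and neural progenitor library 1 went against their labels. The 7 cardiac markers summed to 12002, 48.3 and 11501 TPM in cardiomyocyte libraries 1 to 3 and to 12363, 31.0 and 30.1 in the neural progenitor libraries. The 7 neural markers summed to 89.0, 3716 and 65.8 TPM in the former and to 94.8, 4324 and 4205 in the latter. These 2 libraries are called by their labels here, with values for every library and results with and without them.

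In the text, TPM is a level corrected for gene length and library size, and can be compared between genes. A log2 fold change is a difference between groups, estimated with its standard error (SE) by edgeR's quasi-likelihood test on the estimated counts. A gene is said to have risen or fallen where the Benjamini-Hochberg adjusted p over all genes tested was under 0.05. In bulk RNA, fewer cells that express a gene and less of its RNA per cell cannot be told apart.

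Most of the 83 genes were well expressed. On average over the 36 libraries, 50 stood at 100 TPM or more, 28 between 10 and 100 and 5 below 10, and 78 were above 0 in every library. The ATP synthase held the highest: ATP5F1A, the alpha subunit of its catalytic head, averaged 2119 TPM. COX6C of complex IV averaged 775 TPM, NDUFB9 of the membrane arm of complex I 542 and UQCRB of complex III 393. NDUFS1, the largest iron-sulphur subunit of complex I, averaged 297 TPM and SDHD, a membrane anchor of complex II, 169. The lowest was COX8H, the heart form of subunit VIII, which was above 0 in only 5 libraries.

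The summed level of the 83 genes differed more between cell states than among the iPSC clones. It was 10659, 11243, 8160 and 8145 TPM in fibroblasts, and 18124 to 21125 TPM over the 11 libraries of clones 1 to 3. In clone 8 it was 19373, 20512 and 19474 TPM on day 0, 19264, 22182 and 22136 on day 1, and 19772, 21449 and 20560 on day 2. It was 14237, 15314 and 15999 TPM on day 3 and 16902, 16586 and 15434 in endothelial cells. The day 3 and endothelial libraries therefore all stood below all day 0 to day 2 libraries and above all fibroblasts. Cardiomyocyte libraries gave 31242, 15452 and 34780 TPM and neural progenitor libraries 31752, 12790 and 14633. The 3 libraries with cardiac markers were thus the highest of the 36, and the 3 with neural markers were lower than every iPSC library. As TMM-scaled counts (CPM) rather than per length, the order of these 6 was the same in kind: 15233, 5228 and 19390 for cardiomyocytes, 16282, 3849 and 4281 for neural progenitors, and 8167.5, 8969 and 8373 on day 0.

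**Figure D1:**
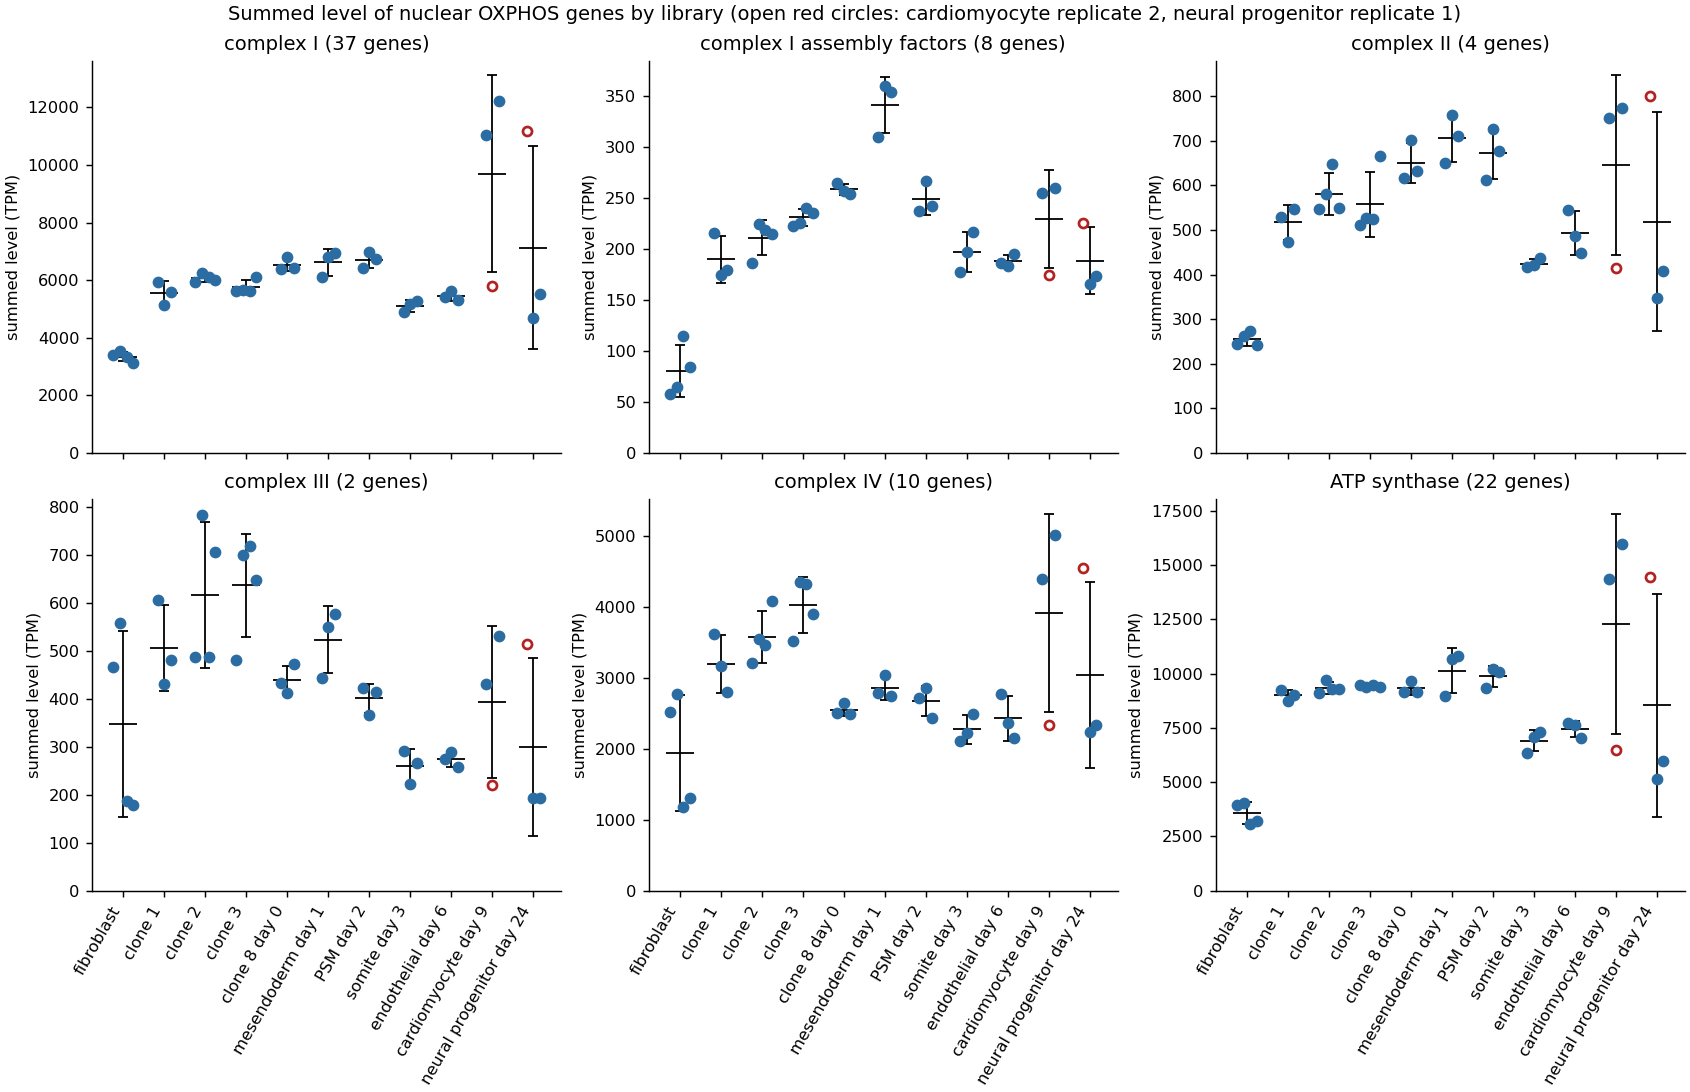
Summed level in TPM of the genes of each complex in each library. Points are libraries, bars show the group mean and SD, and open red circles mark cardiomyocyte library 2 and neural progenitor library 1, which lie with the other lineage in every complex shown.

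The first comparison asked how the iPSC clones differ from fibroblasts. Of the 82 genes tested, 45 rose and 12 fell in the mean of clones 1 to 3, against 38.6% of all 14660 genes tested that rose and 35.9% that fell. The median log2 fold change of the 82 genes was 0.63 and that of all genes 0.11. ATP5F1A, ATP5B and ATP5C1 of the catalytic head and shaft of the ATP synthase, 3 of 4 genes of complex II and 7 of 8 complex I assembly factors rose, whereas NDUFA4L2 was nearly absent from them. On log2(TPM + 1) with limma, 50 rose and 6 fell, where 42.5% of all genes rose and 33.6% fell.

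The ATP synthase had 12 genes that rose and 3 that fell of 22. ATP5F1A stood at 189.7, 232, 373 and 449 TPM in fibroblasts. It was 3354, 3219.7 and 2924 TPM in clone 1, 2782, 2890.1, 2642 and 2610.3 in clone 2 and 3174, 2629.8, 2591 and 2513 in clone 3. Every clone library stood far above every fibroblast library (log2 fold change 3.14, SE 0.18, adjusted p = 4.32e-11). ATP5B, the catalytic beta subunit, ran from 150.1 to 265 TPM in fibroblasts and from 542 to 919.8 in the clones. ATP5MC3, a gene for the c ring that turns as protons pass, rose by 1.21 on the log2 scale. ATP5E, the epsilon subunit, fell (log2 fold change -0.57, SE 0.14, adjusted p = 0.00127), from 602, 625, 343 and 411 TPM in fibroblasts.

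Complex I accessory genes gave 15 rises and 5 falls of 30. NDUFA12, of the matrix arm, stood at 32.9, 46.1, 80.6 and 42.8 TPM in fibroblasts and at 262 to 495 over the 11 clone libraries, with no overlap (log2 fold change 2.79, SE 0.21, adjusted p = 2.07e-09). NDUFS6, a zinc-binding subunit of the same arm, was at 57.2, 66.98, 78.4 and 80.9 TPM in fibroblasts and at 307 to 755 in the clones (log2 fold change 2.46, SE 0.17, adjusted p = 7.3e-10). In the other direction, NDUFB4 of the membrane arm stood at 100.2, 129.97, 31.3 and 31.8 TPM in fibroblasts and 6.18 to 41.4 in the clones (log2 fold change -1.78, SE 0.39, adjusted p = 0.000538). Fibroblast libraries 1 and 2 were high for NDUFB4, while libraries 3 and 4 lay inside the range of the clones.

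Among the 7 core subunits, 3 rose and 1 fell. NDUFS1 was at 45.6, 43.7, 99.3 and 99.4 TPM in fibroblasts and 264 to 379.6 in the clones (log2 fold change 2.08, SE 0.18, adjusted p = 8.93e-09). NDUFS7, an iron-sulphur subunit near the ubiquinone site, fell (log2 fold change -0.70, SE 0.18, adjusted p = 0.00206): it was at 60.5, 53.4, 81.4 and 57.1 TPM in fibroblasts and 23.99 to 56.8 in the clones, and the groups overlapped.

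Of the 8 assembly factors, which help build complex I and are not part of it, 7 rose and 1 fell, with a median log2 fold change of 1.51. NDUFAF2, which holds the place that its relative NDUFA12 later takes, stood at 7.78, 4.82, 5.31 and 5.22 TPM in fibroblasts and 22.1 to 48.1 in the clones (log2 fold change 2.44, SE 0.31, adjusted p = 1.51e-06). NDUFAF4 was at 4.57, 8.37, 3.5 and 1.27 TPM in fibroblasts and 6.54 to 33.6 in the clones, a log2 fold change of 2.08. Fibroblast and clone libraries did not overlap for NDUFAF2 but did for NDUFAF4. NDUFAF1 was the factor that fell (log2 fold change -0.65, SE 0.16, adjusted p = 0.00154), at 7.56 to 14.97 TPM in fibroblasts and 4.98 to 9.18 in the clones.

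Complex II had 3 rises of 4 genes and no fall. SDHD stood at 38.4, 43.9, 66.3 and 67.3 TPM in fibroblasts and 121 to 262 in the clones (log2 fold change 1.63, SE 0.17, adjusted p = 1.37e-07). SDHA, its flavoprotein, which oxidises succinate, ran from 65.7 to 95.6 TPM in fibroblasts and from 164 to 249 in the clones, a log2 fold change of 1.26. The libraries of the groups did not overlap for SDHA or SDHD. In complex III, UQCRB rose (log2 fold change 1.04, SE 0.24, adjusted p = 0.000751) and UQCR10 fell (log2 fold change -1.48, SE 0.48, adjusted p = 0.0105). UQCR10 was at 138, 149, 25.6 and 13.5 TPM in fibroblasts, and only libraries 1 and 2 lay above the 9.79 to 58.1 of the clones. Its fall did not pass without fibroblast library 1 or without library 2, nor with limma.

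In complex IV, 4 of 9 genes tested rose and 1 fell. The rise was led by COX7A2, the widely expressed form of subunit VIIa, at 136, 188, 66.96 and 104 TPM in fibroblasts. COX7A2 stood at 1794, 1137 and 1043 TPM in clone 1, 1099.7, 1162, 935 and 1612 in clone 2 and 1577, 2011, 2067 and 1418 in clone 3, with no overlap (log2 fold change 3.50, SE 0.28, adjusted p = 3.94e-09). Undifferentiated clone 8 held only 322, 409 and 335 TPM of it, below all 11 libraries of clones 1 to 3, though clone 8 was in another fit and no test was made between them. NDUFA4L2, a relative of NDUFA4 that is known to be induced in low oxygen, stood at 296, 225, 74.2 and 70.2 TPM in fibroblasts and at 0 to 1.16 in the clones (log2 fold change -8.45, SE 0.63, adjusted p = 1.28e-09). Its usual counterpart NDUFA4, now counted with complex IV, was at 307, 294, 60.5 and 87.3 TPM in fibroblasts and 54.8 to 262 in the clones, and did not pass the test (log2 fold change -0.44, SE 0.29, adjusted p = 0.177).

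Against fibroblast libraries 1 and 2 alone, 41 genes were higher and 21 lower in the clones, and 39.2% and 35.0% of all genes were. Against libraries 3 and 4 alone, 58 were higher and 4 lower, and 37.4% and 30.2% of all genes were. Of the genes, 38 were higher and 3 lower (NDUFA4L2, NDUFS7 and NDUFAF1) against both pairs: 10 of the higher belonged to the ATP synthase, 12 were accessory and 3 core subunits of complex I, 5 were assembly factors, 3 belonged to complex II, 1 to complex III and 4 to complex IV. Another 6 genes were lower against libraries 1 and 2 and higher against libraries 3 and 4. COX6A1, the widely expressed form of subunit VIa, was among them, at 613, 591, 139 and 141 TPM in fibroblasts and 198 to 348 in the clones. Its log2 fold change was -1.14 against the former pair and 0.98 against the latter. The 6 also held ATP5MF, COX5B, NDUFA13, NDUFAB1 and SDHB, which were named after their values were seen. NDUFB4 and ATP5E did not pass against libraries 3 and 4 alone. How many of all genes were called against both pairs, in the same or in opposite directions, was not counted. Both comparisons also used the same clone libraries. The counts of 38, 3 and 6 genes therefore have no background beside them. What sets the 2 pairs apart was not tested.

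The table lists 4 subunits of the ATP synthase under 2 symbols each, an older and a newer one: the epsilon subunit (ATP5E and ATP5F1E), the c subunit (ATP5G1 and ATP5MC1), the d subunit (ATP5H and ATP5PD) and the f subunit (ATP5J2 and ATP5MF). Reads of 1 gene may be split between the 2 entries, so each entry alone is uncertain. For the d subunit, ATP5H was at 144, 120.2, 249 and 212 TPM in fibroblasts and ATP5PD at 195, 187, 2.9 and 0. Fibroblast libraries 1 and 2 were thus rich in ATP5PD, which was at 0 in all 3 libraries of clone 1 and at 0 to 112 TPM in clones 2 and 3. The fall of ATP5PD over all fibroblasts (log2 fold change -5.42, SE 1.58, adjusted p = 0.0059) stood beside a rise of ATP5H, and the sum of both rose (log2 fold change 1.21, SE 0.14, adjusted p = 6.88e-07). For the f subunit, ATP5MF was at 225, 199, 28.3 and 31.3 TPM and ATP5J2 at 62.1, 79.03, 149 and 153 TPM in fibroblasts, and their sum rose by 0.84 on the log2 scale. The c subunit sum of ATP5G1 and ATP5MC1 rose by 1.52. With each pair summed, 45 genes rose and 11 fell, where 38.7% of all entries rose and 35.9% fell.

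**Figure D2:**
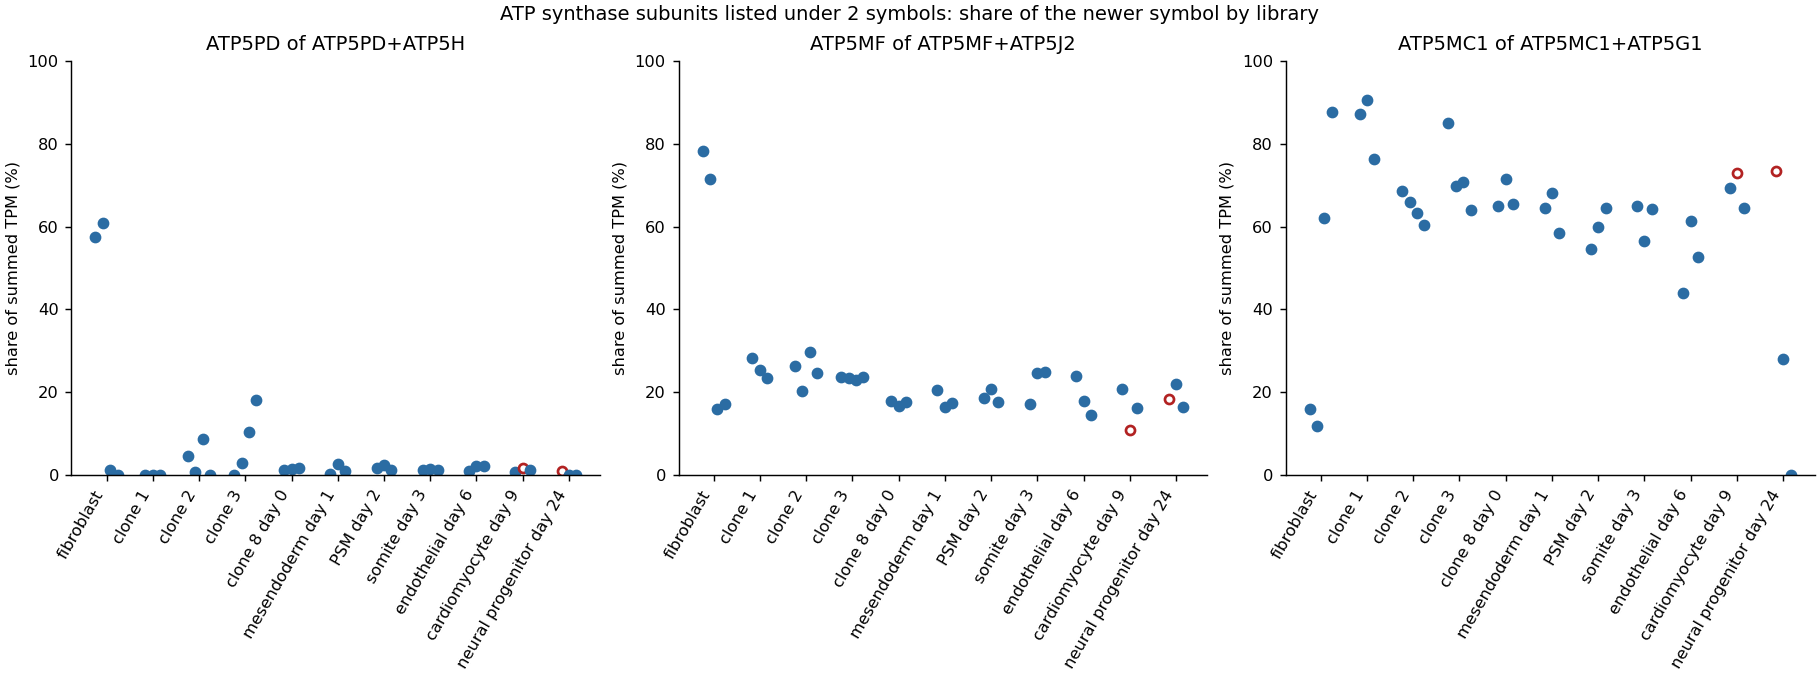
Share in percent of the summed TPM of a subunit that stands under the newer of its 2 symbols, per library and group, for the d (ATP5PD), f (ATP5MF) and c (ATP5MC1) subunits. Fibroblast libraries 1 and 2 lie above libraries 3 and 4 in the d and f subunits and below them in the c subunit.

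Gene lists outside the set are given beside the same 38.6% of all genes that rose and 35.9% that fell. Of 17 regulators of mitochondrial biogenesis, 10 rose and 2 fell, led by the nuclear receptor ESRRB (log2 fold change 4.66) and, downwards, the coactivator PPRC1 (-1.12). Of 16 citrate cycle genes, 10 rose, with DLD at 2.31, and OGDH alone fell (-2.07). Of 12 genes of the electron carriers, 7 rose, with PDSS1 of ubiquinone synthesis at 3.01, and COQ6 fell (-0.67). Of 11 assembly genes of complexes III and IV and the ATP synthase, 5 rose, with the copper chaperone COX17 at 3.08, and 2 fell, with TTC19 at -1.34. Of 5 uncoupling and carrier genes, 3 rose, with UCP2 at 5.09.

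The clones were compared with each other in pairs that share libraries. Few genes differed. Clone 1 against clone 2 gave 3 higher and 1 lower, where 9.31% of all genes were called. NDUFAF8, an assembly factor, stood at 24.5, 10.02 and 7.91 TPM in clone 1 and 3.19, 4.61, 2.76 and 5.74 in clone 2 (log2 fold change 1.97, SE 0.46, adjusted p = 0.0152). NDUFS6 was at 755, 423 and 451 and 320.2, 307, 336 and 323 TPM (log2 fold change 0.94, SE 0.19, adjusted p = 0.00771), and SDHA was higher by 0.55 on the log2 scale. ATP5G2, the second c ring gene, was at 58.9, 75.8 and 79.7 TPM in clone 1 and 135, 115, 238 and 183 in clone 2 (log2 fold change -1.06, SE 0.30, adjusted p = 0.0355). None of these 4 genes overlapped between the clones. NDUFS6 passed with any library left out. NDUFAF8 did not pass without clone 1 library 2 or clone 2 library 3, SDHA without clone 1 library 2 or 3, and ATP5G2 without any of the clone 1 libraries or clone 2 library 3 or 4. With limma on log2(TPM + 1), where the median of all genes moved to -0.16 and that of the set to -0.26, the split was 2 higher and 5 lower (12.2% of all genes called), and SDHA did not pass.

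Clone 1 against clone 3 gave 3 lower genes, where 6.70% of all genes were called. ATP5E stood at 213, 227 and 314 TPM in clone 1 and 399, 457, 443 and 418 in clone 3 (log2 fold change -0.79, SE 0.19, adjusted p = 0.0203). COX6C was at 304, 392 and 444 and 476, 823, 792 and 837 TPM (log2 fold change -0.95, SE 0.22, adjusted p = 0.0172). NDUFV2, a core subunit beside the NADH site, had a log2 fold change of -0.76. None of the 3 passed without clone 1 library 2, clone 3 library 2 or clone 3 library 3. ATP5E also did not pass without clone 1 library 3, nor NDUFV2 without that library or clone 3 library 4. Without clone 1 library 4, 7 genes passed, where 9.4% of all genes did. NDUFV2 did not pass with RLE scaling or limma either. Clone 2 against clone 3 gave ATP5E alone as lower (log2 fold change -0.62, SE 0.17, adjusted p = 0.0499), where 4.22% of all genes were called. That call was lost when any of the 8 libraries was left out, without the filter on low counts, and with limma.

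From day 0 to day 1, when clone 8 was taken towards mesendoderm, 27 of the 81 genes tested rose and 0 fell, against 20.0% of all 13597 genes that rose and 20.1% that fell. The median log2 fold change was 0.33 for the 81 genes and 0.00 for all genes. The rises were spread over the roles: 7 in the ATP synthase, 6 accessory and 3 core genes and 4 assembly factors of complex I, 2 in complex II, 1 in complex III and 4 in complex IV. They depended on the scale. With limma on log2(TPM + 1), 7 rose and 7 fell, where 10.5% of all genes rose and 25.6% fell. On that scale the median of all genes was -0.19, and that of the 81 genes 0.07.

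NDUFAF5, an assembly factor that modifies the core subunit NDUFS7, stood at 96.2, 94.2 and 93.05 TPM on day 0 and 139.9, 138 and 145 on day 1, with no overlap (log2 fold change 0.82, SE 0.16, adjusted p = 0.000461). NDUFS8, an iron-sulphur core subunit, was at 98.7, 93.1 and 81.1 and 135, 137 and 104 TPM (log2 fold change 0.69, SE 0.19, adjusted p = 0.00765). Here too all day 1 libraries were above all day 0 libraries. ATP5C1, the gamma subunit that forms the rotor shaft, was at 718, 779 and 769 and 825, 1001 and 1187 TPM (log2 fold change 0.68, SE 0.17, adjusted p = 0.00327). NDUFAF4 was at 57.95, 39.8 and 55.1 TPM on day 0 and 56.3, 80.6 and 100 on day 1 (log2 fold change 0.91, SE 0.26, adjusted p = 0.00817), and the groups overlapped through day 1 library 1. NDUFA11, of the membrane arm, was at 77.6, 89.2 and 89.6 and 89.9, 148 and 119.7 TPM (log2 fold change 0.74, SE 0.24, adjusted p = 0.019). SDHC, the other anchor of complex II, rose by 0.62, UQCRB by 0.54 and NDUFA4 by 0.67 on the log2 scale.

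Day 1 library 1 stood below libraries 2 and 3: the median ratio of its genes to the day 0 mean was -0.0015 on the log2 scale of TPM, against 0.15 and 0.06 in libraries 2 and 3. Without it 45 genes rose, where 23.5% of all genes did. Without library 2 there were 8 and without library 3 there were 6, where 15.1% and 14.3% of all genes rose. Without day 0 library 1 the number was 12 and without day 0 library 3 it was 14, beside 14.8% and 15.4%. NDUFAF5 and ATP5C1 passed with any library left out, and NDUFAF4 did not without day 1 library 3. NDUFA11, SDHC, UQCRB and NDUFA4 passed neither without day 0 library 1 or day 1 library 2 or 3 nor on log2(TPM + 1), SDHC and NDUFA4 also not without day 0 library 3 and UQCRB not without day 0 library 2, and NDUFS8 did not pass on log2(TPM + 1).

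Between day 1 and day 2, on the way to presomitic mesoderm, few genes moved: 1 rose and 4 fell, against 12.6% and 13.5% of all genes. NDUFAF4 fell to 36.3, 41.3 and 45.9 TPM (log2 fold change -0.98, SE 0.26, adjusted p = 0.00845) and NDUFAF5 to 80.8, 99.7 and 91.4 TPM (log2 fold change -0.65, SE 0.16, adjusted p = 0.00531). All day 2 libraries of both lay below all day 1 libraries. ATP5MC1 was at 156, 235 and 169 TPM on day 1 and 92.7, 121 and 139 on day 2 (log2 fold change -0.68, SE 0.22, adjusted p = 0.031), and NDUFS6 fell by a log2 fold change of -0.42. NDUFC2, of the membrane arm, was at 345, 389 and 364 TPM on day 1 and 527, 434 and 489.7 on day 2, and rose (log2 fold change 0.37, SE 0.13, adjusted p = 0.0411). With limma on log2(TPM + 1), 5 rose and 6 fell, where 12.1% and 11.6% of all genes did, and without day 1 library 1, 14 genes fell, where 14.5% of all genes did. NDUFAF5 passed with any library left out. NDUFAF4 did not without day 1 library 3. ATP5MC1 did not without day 1 library 2 or 3 or day 2 library 1 or 2, NDUFS6 without day 1 library 3 or day 2 library 1 or 2, and NDUFC2 without day 1 library 1 or day 2 library 1 or 3.

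From day 2 to day 3, labelled presomitic mesoderm and somite, 52 of the 81 genes fell and 0 rose, while 24.5% of all genes fell and 26.6% rose. The median log2 fold change was -0.64 for the 81 genes and 0.05 for all genes. Every role took part: 13 of 22 genes of the ATP synthase, 19 of 30 accessory and 6 of 7 core subunits, 4 of 8 assembly factors, 4 of 4 in complex II, 1 of 2 in complex III and 5 of 8 tested in complex IV. In 46 of the 81 genes at 1 TPM or more on day 2, every day 3 library lay below every day 2 library in TPM, as did 23.4% of all genes at that level. With limma on log2(TPM + 1), 46 fell and 1 rose, where 17.7% of all genes fell and 32.9% rose, with a median of -0.40 for the set and 0.21 for all genes. In a fit of all 21 clone 8 libraries the median for the set was again -0.64 while 5 genes fell, where 11.8% of all genes did. With the 2 libraries that go against their labels taken out of that fit, 53 fell, where 24.2% of all genes did. For the step to day 1, the same fits with and without these 2 libraries gave 0 and 24 rises and no fall. Of all genes, 6.02% and 19.1% rose there. For endothelial cells they gave 1 and 26 falls, where 8.58% and 21.9% of all genes fell. The rises there were 0 and 3, where 12.6% and 25.5% of all genes rose.

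The c ring gave the deepest fall of the ATP synthase. ATP5MC1 went from 92.7, 121 and 139 TPM on day 2 to 40.9, 44.6 and 57.8 on day 3 (log2 fold change -1.55, SE 0.24, adjusted p = 2.83e-05). ATP5G1 went from 77.3, 81.1 and 76.05 to 22.03, 34.2 and 32.1 TPM (log2 fold change -1.58, SE 0.24, adjusted p = 1.99e-05). Both entries name the same subunit, and neither overlapped between the days. ATP5MC3 fell too, by a log2 fold change of -1.16, and ATP5G2 did not pass the test (log2 fold change -0.30, SE 0.20, adjusted p = 0.224). ATP5F1A went from 2446, 2759.6 and 2801 to 1428, 1641 and 1666 TPM, with no overlap, a log2 fold change of -0.99.

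In complex I the fall was led by NDUFAB1, the mitochondrial acyl carrier protein, from 192, 251 and 173 TPM to 83.4, 113 and 102 (log2 fold change -1.40, SE 0.20, adjusted p = 8.24e-06). NDUFAF4 fell further, to 15.9, 15.9 and 17.4 TPM (log2 fold change -1.58, SE 0.29, adjusted p = 0.000174), and NDUFS8 had a log2 fold change of -1.02. The libraries of days 2 and 3 did not overlap for these genes. SDHD of complex II went from 209, 273 and 237 to 102, 139 and 127 TPM (log2 fold change -1.20, SE 0.21, adjusted p = 7.75e-05). UQCRB of complex III went from 371, 327 and 383 to 251, 184 and 201 TPM (log2 fold change -1.01, SE 0.18, adjusted p = 0.000123). In complex IV, NDUFA4 went from 252, 292 and 217 to 126, 145 and 176 TPM (log2 fold change -1.01, SE 0.23, adjusted p = 0.00114) and COX7A2 fell, with a log2 fold change of -0.91. Day 2 and day 3 libraries stayed apart for SDHD, UQCRB, NDUFA4 and COX7A2, whereas COX6A1 did not pass the test (log2 fold change -0.22, SE 0.16, adjusted p = 0.249).

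Of the 27 genes that rose on day 1, 21 were among the 52 that fell on day 3, which is 77.8% of the former and 40.4% of the latter. Over all genes, 46.7% of the day 1 rises fell on day 3, and 64.2% of the set fell on day 3 in any case. The steps share no libraries. Beside the fall on day 3, the 6 pluripotency markers together went from 1019 to 1239 TPM on day 2 to 471 to 559 on day 3, and the 6 fibroblast markers from 36.8 to 58.9 to 416 to 643. The 2 epithelial markers went from 201 to 222 TPM to 808 to 1157, the 7 neural markers from 52.3 to 74.3 to 263 to 376, the 4 endoderm markers from 692 to 815 to 1149 to 1534 and the 7 cardiac markers from 37.5 to 57.8 to 117 to 136. Few genes carried several of these sums. On day 3 LIN28A held 423 to 514 TPM of the pluripotency sum. The endoderm rise was in APOA1, while SOX17 went from 30.4 to 53.4 to 9.64 to 12.9 TPM. The cardiac rise was mostly MYL7, at 83.9 to 100 TPM on day 3. The neural rise was mostly NES and MAP2, with PAX6, SOX1, DCX and ELAVL3 at 1.25 TPM or less. The part of these markers in the result was not tested.

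Outside the set, list counts on day 3 stand beside the 24.5% of all genes that fell and 26.6% that rose. CYCS, cytochrome c itself, had a log2 fold change of -1.61, 1 of 9 falls among 12 electron carrier genes with no rise. In the citrate cycle 7 of 16 fell, with IDH3A at -1.79, and 2 rose, with OGDH at 0.82. Of 11 assembly genes, 5 fell, with LRPPRC, which stabilises mitochondrial mRNA, at -1.43. Of 16 biogenesis regulators tested, 7 fell, with the mitochondrial transcription factor TFB2M at -1.54, and 2 rose, with the coactivator PPARGC1A at 4.53. The first step, to day 1, had given 5 rises among those 16 and 0 falls, where 20.0% of all genes rose, with TFB2M at 0.98.

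Endothelial cells on day 6 were compared with day 0, whose libraries also served the day 1 comparison. The set was lower: 29 of 81 genes fell and 2 rose, against 24.0% and 23.7% of all genes. The median log2 fold change was -0.33. The falls were 7 in the ATP synthase, 9 accessory and 3 core genes and 5 assembly factors of complex I, 2 in complex II, 1 in complex III and 2 in complex IV. With limma on log2(TPM + 1), 35 fell and 5 rose, where 23.3% and 23.2% of all genes did. The 6 endothelial markers summed to 636 to 698 TPM in these libraries. Genes of other marker lists were present too, among them 602 to 758 TPM of the 6 pluripotency and 368 to 447 of the 2 epithelial markers. On day 0 the latter 2 lists stood at 3592 to 3667 and 1197 to 1397 TPM. The pluripotency sum in endothelial cells was mostly LIN28A, at 512, 687 and 590 TPM, with SOX2 at 57.5, 45.35 and 40.3. There POU5F1 stood at 2.66, 1.92 and 0.2 TPM and NANOG at 0.97, 0 and 0. On day 0 POU5F1 stood at 666 to 797 TPM and NANOG at 68.4 to 69.3. The part of these markers in the result was not tested.

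ATP5MC1 stood at 178, 176 and 155 TPM on day 0 and 47.5, 60 and 46.8 in endothelial cells (log2 fold change -1.72, SE 0.24, adjusted p = 6.73e-06). ATP5G2, which encodes the same mature c subunit, was at 349.6, 334 and 285 and 724, 460.01 and 358 TPM and rose (log2 fold change 0.62, SE 0.20, adjusted p = 0.0165). The groups did not overlap for either, in opposite directions. ATP5G2 made up 25.2%, 24.5% and 22.3% of the summed TPM of the c subunit genes on day 0 and 56.3%, 44.5% and 40.8% in endothelial cells, while ATP5MC3 fell (log2 fold change -0.78, SE 0.16, adjusted p = 0.000368). ATP5S, no subunit, was the other gene that rose, from 18.1, 20.1 and 21.3 to 27.3, 33.1 and 32.01 TPM (log2 fold change 1.01, SE 0.22, adjusted p = 0.000787).

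In complex II, SDHA went from 194, 208 and 203 TPM to 104, 117 and 113 (log2 fold change -0.83, SE 0.12, adjusted p = 1.27e-05). NDUFB1 of the membrane arm of complex I was at 52.6, 55.4 and 41.1 TPM on day 0 and 25.6, 20.2 and 19.2 in endothelial cells (log2 fold change -1.24, SE 0.27, adjusted p = 0.000722). Both were lower in every endothelial library. The log2 fold change was -0.88 for UQCRB, -0.78 for NDUFS3 of the complex I core, -1.12 for NDUFAF8 and -0.53 for COX7A2, and all 4 fell. COX7A2 did not pass without day 0 library 2 or endothelial library 1 or 3, ATP5G2 without day 0 library 3 or endothelial library 1, and NDUFAF8 without day 0 library 1 or 2, without any of the endothelial libraries or with DESeq2. Outside the set, with 24.0% and 23.7% of all genes again beside them, 11 of 16 citrate cycle genes fell and 1 rose, with IDH3A at -1.67, and 7 of 12 electron carrier genes fell and 0 rose, with PDSS1 at -1.50.

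**Figure D3:**
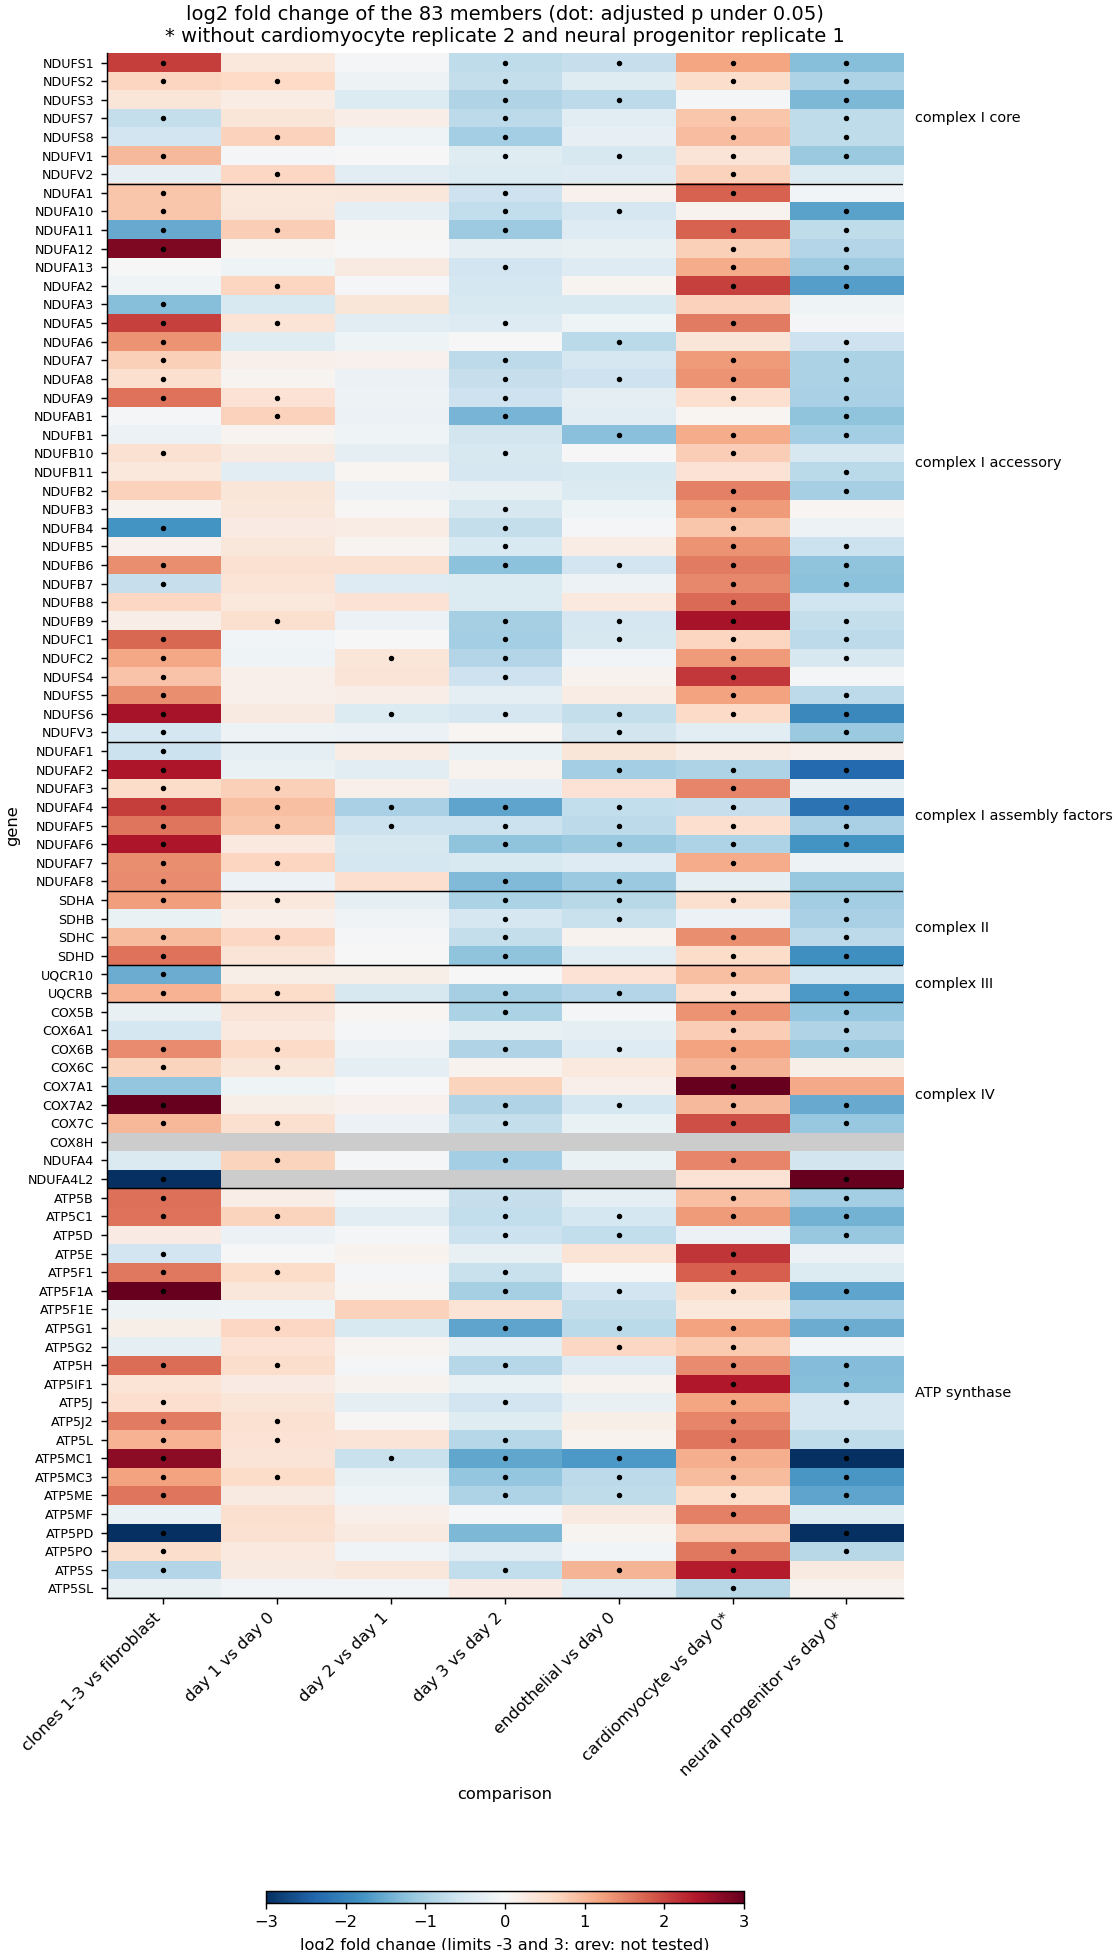
Log2 fold change of each gene of the set in each comparison, ordered by role, with colours limited to -3 and 3. A dot marks an adjusted p under 0.05 and grey a gene that was not tested. Columns with an asterisk leave out cardiomyocyte library 2 and neural progenitor library 1, and there the cardiomyocyte column is mostly positive and the neural progenitor column mostly negative.

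For cardiomyocytes and neural progenitors the libraries are best read 1 by 1 against day 0. Cardiomyocyte libraries 1, 2 and 3 had a median log2 ratio to the day 0 mean of 0.53, -0.38 and 0.74 over 81 genes, and neural progenitor libraries 1, 2 and 3 of 0.49, -0.62 and -0.49. Of these 81 genes, which were at 1 TPM or more on day 0, 57, 19 and 63 stood above all day 0 libraries in the cardiomyocyte libraries, where 31.7%, 45.7% and 28.6% of all genes at that level did. In the neural progenitor libraries 62, 11 and 19 did, where 31.5%, 52.0% and 49.5% of all genes did. Below all day 0 libraries stood 14, 51 and 13 genes in the cardiomyocyte libraries (58.1%, 44.4% and 62.7% of all genes), and 11, 63 and 46 in the neural progenitor libraries (59.0%, 39.0% and 41.8%). The 3 libraries with cardiac markers were high for most genes of the set, and the 3 with neural markers were low.

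**Figure D4:**
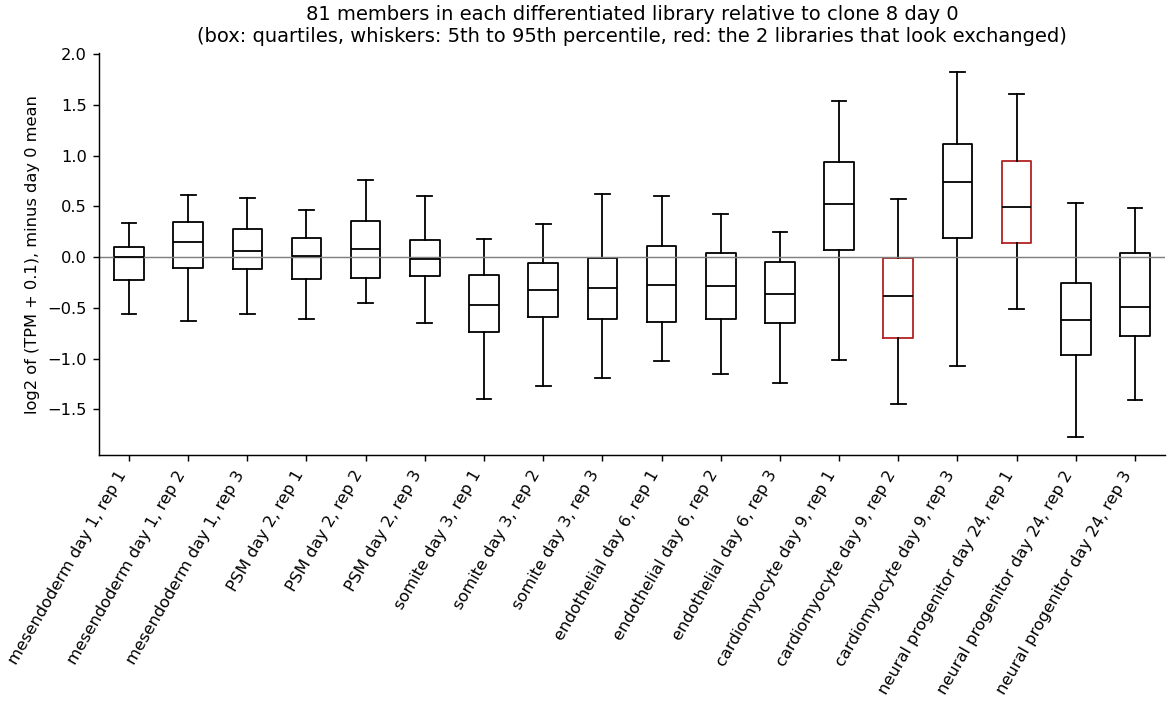
Log2 ratio of each gene's TPM to its mean on day 0, per library, over 81 genes. Boxes give the quartiles and whiskers the 5th and 95th percentiles. The median is above 0 in cardiomyocyte libraries 1 and 3 and neural progenitor library 1, and below 0 in cardiomyocyte library 2 and neural progenitor libraries 2 and 3.

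Cardiomyocytes as labelled gave 16 rises and 1 fall of 82 genes against day 0, where 22.9% of all genes rose and 18.8% fell. Leaving out cardiomyocyte library 2 alone gave 38 rises and 2 falls, where 23.4% and 24.8% of all genes rose and fell. Leaving out cardiomyocyte library 3 gave 4 and 1 (19.5% and 17.3% of all genes), and leaving out any 1 day 0 library gave 8 and 1 (15.8% to 16.5% and 15.6% to 16.1%). Without the 2 libraries, 64 rose and 4 fell, where 30.7% and 31.6% of all genes did, and the median log2 fold change was 1.00 against -0.04 for all genes. The rises then covered 18 of the 22 ATP synthase genes, 24 of 30 accessory and 6 of 7 core genes, 3 of 8 assembly factors, 3 of 4 genes of complex II, both of complex III and 8 of 9 tested in complex IV. On log2(TPM + 1) without the 2 libraries, limma gave 44 rises and 6 falls, where 21.3% of all genes rose and 40.8% fell. There the median of all genes was -0.30 and that of the 82 genes 0.58. The 6 fibroblast markers moved with the set: they summed to 1121, 20.4 and 770 TPM in the cardiomyocyte libraries, 1248, 39.7 and 35.4 in the neural progenitor libraries and 134 to 288 on day 0. None of the 6 was at 0 in the 3 libraries with cardiac markers, and LUM, a matrix proteoglycan of fibroblasts, stood at 235, 240.5 and 306 TPM there and at 0.25 to 0.63 on day 0. Their part in the result was not tested.

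COX7A1, the heart and skeletal muscle form of subunit VIIa, stood at 5.29, 7.11 and 7.18 TPM on day 0. It was at 215, 9.73 and 172 TPM in the cardiomyocyte libraries and 138, 23.2 and 9.38 in the neural progenitor libraries. The 3 libraries with cardiac markers were far above all others, and COX7A1 made up 29.3%, 24.3% and 21.4% of the sum of COX7A1 and COX7A2 in them, against 1.62% to 2.10% on day 0. It rose both as labelled (log2 fold change 4.70, SE 1.15, adjusted p = 0.00388) and without the 2 libraries (log2 fold change 5.26, SE 0.49, adjusted p = 4.61e-09). COX7A2 was at 517, 199.5 and 534 TPM in the cardiomyocyte libraries and 506, 154 and 176 in the neural progenitor libraries. COX7A2 also rose without the 2 libraries (log2 fold change 0.98, SE 0.20, adjusted p = 0.000161).

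COX8H was listed at 12.4, 0 and 5.59 TPM in the cardiomyocyte libraries and 7.57, 1.15 and 0 in the neural progenitor libraries, from estimated counts of 11, 0 and 7.18 and of 10, 1.01 and 0. It was at 0 in every other library but endothelial library 2, and was too rare to test. It was highest in the 3 libraries with cardiac markers.

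NDUFB9 was the highest gene of complex I in the 3 libraries with cardiac markers. It stood at 479, 507 and 493 TPM on day 0, 1928, 682 and 2176 in the cardiomyocyte libraries and 1899.8, 298 and 507 in the neural progenitor libraries. It rose without the 2 libraries (log2 fold change 2.48, SE 0.23, adjusted p = 2.75e-09) and on the scale of log2(TPM + 1), by 2.05. NDUFS4, another accessory subunit, was at 325, 336 and 332 TPM on day 0 and 962, 463 and 1177 in the cardiomyocyte libraries, and rose by 2.11 without the 2. NDUFS1 of the core was at 317, 352 and 359 TPM on day 0, 515, 221 and 637 in the cardiomyocyte libraries and 599, 173 and 199 in the neural progenitor libraries (log2 fold change 1.17, SE 0.19, adjusted p = 1.2e-05). In all 3 genes the libraries with cardiac markers were the highest.

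In the ATP synthase, ATP5IF1, the inhibitor that stops the enzyme from running backwards, stood at 234, 273 and 246 TPM on day 0, 978, 289 and 1019 in the cardiomyocyte libraries and 752, 121 and 154 in the neural progenitor libraries. It rose without the 2 libraries (log2 fold change 2.41, SE 0.20, adjusted p = 4.23e-10). ATP5E was at 1119, 564 and 1148 TPM in the cardiomyocyte libraries and rose by 2.14. ATP5F1A, the most abundant gene of the set, was at 2585, 1151 and 2679.6 TPM and rose by only 0.54, a change that did not pass the test on log2(TPM + 1) (0.12). ATP5SL, no subunit, was at 27.4, 73.8 and 23.1 TPM in the cardiomyocyte libraries and 62.6, 56.9 and 53 on day 0, and fell (log2 fold change -0.83, SE 0.18, adjusted p = 0.00049).

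SDHC of complex II rose by 1.40, UQCR10 of complex III by 0.91 and COX7C of complex IV by 1.94 on the log2 scale without the 2 libraries. UQCR10 did not pass on log2(TPM + 1). The assembly factors were mixed: NDUFAF3 rose by 1.47, while NDUFAF2 (log2 fold change -0.92, SE 0.38, adjusted p = 0.0394), NDUFAF4 (log2 fold change -0.70, SE 0.30, adjusted p = 0.0447) and NDUFAF6 (-0.92) fell. NDUFAF4 was at 25.2, 23.4 and 21.8 TPM in the cardiomyocyte libraries and 57.95, 39.8 and 55.1 on day 0.

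**Figure D5:**
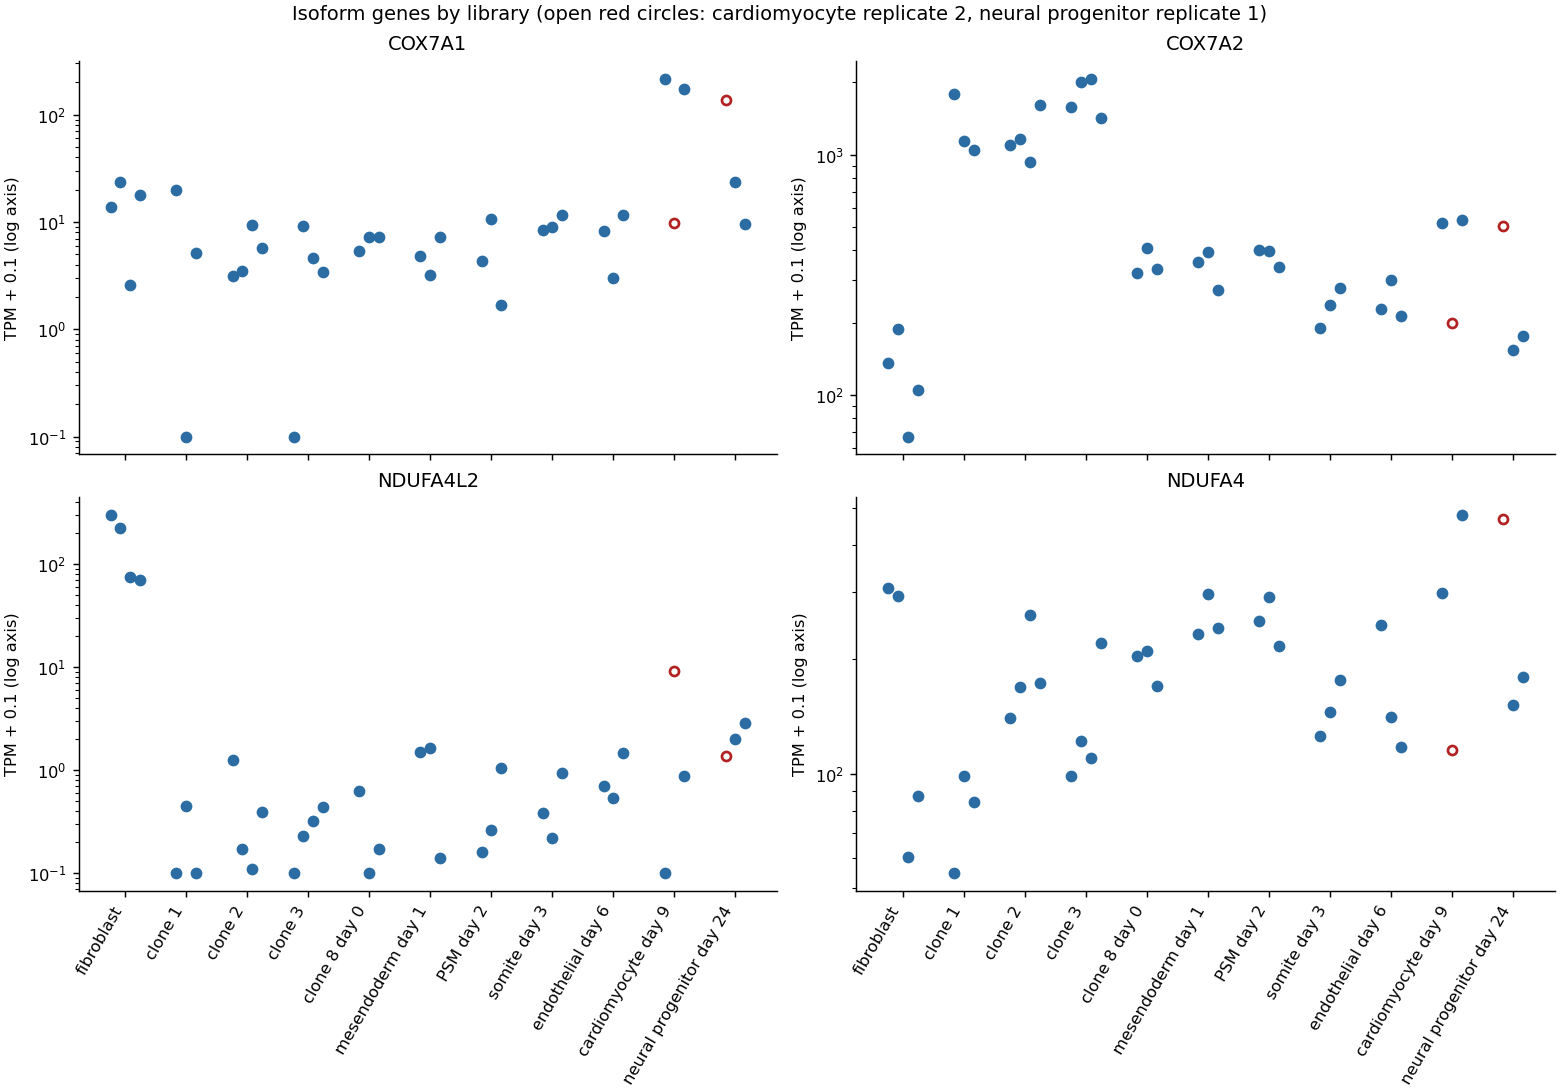
TPM of COX7A1, COX7A2, NDUFA4L2 and NDUFA4 in every library, on a log axis of TPM + 0.1, by group. COX7A1 is highest in the 3 libraries with cardiac markers and NDUFA4L2 in the fibroblasts.

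Lists outside the set were counted in the cardiomyocytes beside 30.7% of all genes that rose and 31.6% that fell. Without the 2 libraries, 5 of 16 citrate cycle genes rose and 7 fell, with SUCLG1 at 1.56 and FH at -0.77. Of 12 electron carrier genes, 8 rose, with ETFB at 2.11, and 2 fell, with COQ2 at -1.71. SLC25A4, the heart and muscle form of the ADP/ATP carrier, rose by 2.94, and UCP2 fell, with a log2 fold change of -1.86. Among the biogenesis regulators 6 rose and 5 fell, with PPARGC1A at 5.76 and PPRC1 at -2.34.

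Neural progenitors as labelled gave 1 rise and 4 falls against the same day 0 libraries, where 23.8% of all genes rose and 19.0% fell. Leaving out neural progenitor library 1 alone gave 43 falls and 1 rise, where 28.1% and 24.5% of all genes fell and rose. Leaving out day 0 library 1, 2 or 3 gave 3, 2 and 3 falls (16% to 16.1% of all genes) and 0 rises. The rise was COX7A1, highest in neural progenitor library 1, and it did not pass the test without the 2 libraries (log2 fold change 1.14, SE 0.62, adjusted p = 0.112). Without the 2 libraries 56 genes fell and 1 rose, where 32.0% and 32.4% of all genes did, with a median log2 fold change of -0.94 against 0.00 for all genes. The falls were 14 in the ATP synthase, 22 accessory and 6 core genes and 4 assembly factors of complex I, 4 in complex II, 1 in complex III and 5 in complex IV. On log2(TPM + 1) 47 fell and 6 rose, where 25.9% and 40.9% of all genes did, with a median of 0.27 for all genes and -0.50 for the 82 genes.

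NDUFS6 stood at 262, 300.1 and 296 TPM on day 0 and 311, 105 and 86.8 in the neural progenitor libraries (log2 fold change -1.94, SE 0.17, adjusted p = 1.11e-09). SDHD was at 198, 241 and 197 and 243, 62.02 and 101 TPM (log2 fold change -1.83, SE 0.27, adjusted p = 2.92e-06). NDUFAF2 was at 27.5, 36.8 and 32.2 and 16.5, 6.61 and 12.03 TPM (log2 fold change -2.34, SE 0.47, adjusted p = 0.000147). In these genes libraries 2 and 3 were below all day 0 libraries. The log2 fold change was -1.73 for UQCRB, -1.51 for COX7A2, -1.35 for NDUFS3 and -1.58 for ATP5F1A, which all fell. The c ring entry ATP5MC1 was at 297, 15.1 and 0 TPM and fell (log2 fold change -4.28, SE 0.43, adjusted p = 1.36e-08), and ATP5G2 did not pass the test (log2 fold change -0.07, SE 0.22, adjusted p = 0.797). ATP5G2 held 54.4% and 52.2% of the c subunit sum in libraries 2 and 3. ATP5PD was listed at 0 in both. Library 3 had the fewest counts of the series, so low genes are measured there with little precision.

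NDUFA4L2 was the gene that rose, though from and to very low levels: 0.52, 0 and 0.07 TPM on day 0 and 1.27, 1.91 and 2.78 in the neural progenitor libraries (log2 fold change 3.85, SE 0.93, adjusted p = 0.000935). As labelled it also rose in the cardiomyocytes (log2 fold change 4.0, SE 1.36, adjusted p = 0.0263), where it stood at 0, 9.1 and 0.78 TPM and library 2 alone was high. Without the 2 libraries that rise was lost (log2 fold change 0.44, SE 1.30, adjusted p = 0.786). Outside the set, beside the 32.0% of all genes that fell and 32.4% that rose, 16 of 16 citrate cycle genes fell in the neural progenitors without the 2 libraries, with MDH2 at -2.65, and 9 of 12 electron carrier genes fell and 0 rose, with PDSS1 at -2.73.

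Cardiomyocytes against neural progenitors as labelled gave 0 calls by edgeR over all 14248 genes tested (0%). At an unadjusted p under 0.05 there were 753 genes, 6 of them in the set, and DESeq2 and limma called 0 genes of the set as well. Leaving out neural progenitor library 1 alone gave 64 genes of the set as higher and 0 as lower, where 21.4% and 6.09% of all genes were. Leaving out cardiomyocyte library 2 alone gave 9 and 1, where 2.83% and 17.5% of all genes were. Without the 2 libraries 76 of 82 genes were higher and 2 lower in the cardiomyocytes, where 32.4% and 32.2% of all genes were. The median log2 fold change was 1.91 against 0.00 for all genes. On log2(TPM + 1), 62 were higher and 3 lower, where 19.0% and 49.3% of all genes were, with a median of 1.09 for the 82 genes and -0.56 for all genes.

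The differences reached every complex. Without the 2 libraries COX7A1 was higher in cardiomyocytes (log2 fold change 4.12, SE 0.57, adjusted p = 1.62e-06), and so were NDUFA2 of the matrix arm by 3.71, ATP5IF1 by 3.70, COX7C by 3.07, NDUFS1 by 2.44, SDHD by 2.39 and UQCRB by 2.24 on the log2 scale. NDUFA2 stood at 104, 28.7 and 125 TPM in the cardiomyocyte libraries and 112, 11.13 and 24.3 in the neural progenitor libraries. The genes that were lower were ATP5SL (log2 fold change -0.93, SE 0.20, adjusted p = 0.000343) and NDUFA4L2 (log2 fold change -3.41, SE 1.10, adjusted p = 0.00947). Summed per complex, complex I stood at 11032, 5806 and 12238 TPM in the cardiomyocyte libraries and 11186, 4696 and 5522 in the neural progenitor libraries. The ATP synthase stood at 14374, 6495 and 15961 and 14472, 5147 and 5996 TPM, and complex II at 752, 414 and 774 and 801, 348 and 408. In each sum cardiomyocyte library 2 lay with neural progenitor libraries 2 and 3, and neural progenitor library 1 with cardiomyocyte libraries 1 and 3.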

How the data were processed

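Ligation-mediated RNA-seq libraries (LM-seq) were made from RNA purified with the RNeasy Plus Mini kit, per the labels' protocols. The authors aligned reads with Bowtie 1.2.3 and quantified genes with RSEM 1.2.3 on Sscrofa11.1, per the submitters' processing notes, which give no roles or order. The authors deposited a table of estimated counts (expected counts, not whole numbers) and a table of TPM for the same 36 libraries. Total estimated counts were 1845333 to 69879325 per library, and this depth sets the precision of low genes. The annotation release is not given in the sources used here. Gene symbols were matched to RefSeq on Sscrofa11.1, and 74 of the 83 were found. The 4 subunits listed under 2 symbols may have split reads.

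Estimated counts were rounded and tested with edgeR 4.0.16 in R 4.3.3 (quasi-likelihood test, TMM scaling, filterByExpr with a minimum count of 10, Benjamini-Hochberg over all genes tested, adjusted p under 0.05). Fits held the fibroblasts with clones 1 to 3, clone 8 from day 0 to day 6, or all of clone 8. All groups of a fit shared 1 estimate of the spread. Without the 2 libraries that go against their labels, only cardiomyocyte libraries 1 and 3 and neural progenitor libraries 2 and 3 remained of these lineages. Alternatives were DESeq2 1.42.0, RLE scaling, no filter, limma 3.58.1 on log2(TPM + 1) and log2(TPM + 0.1), a replicate block, other sets of libraries, and leaving out each library. 3 alternatives were added after seeing the data: summed symbol pairs, limma without the 2 libraries that go against their labels, and all of clone 8 without these 2. The tests were checked on simulated data. The genes of the set and the lists were chosen with earlier results of these data known. Genes named were, per comparison, the isoform genes, the largest rise and fall per role among those that passed, the highest level per role, and the largest rise and fall per list. Further genes were named after their values were seen. The lists were biogenesis regulators, assembly of complexes III and IV and the ATP synthase, electron carriers, citrate cycle, uncoupling and carriers, and the mitochondrial genome, of which 0 genes were analysed here.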

Additional observations from a re-analysis of the deposited data

Results flagged for a closer look

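A value was listed here where, in a group of 4 libraries, the highest or lowest library lay so far from the nearest other that the gap, divided by the range of the group, exceeded Dixon's critical value of 0.829. Over 129 groups tested (summed levels and named genes in fibroblasts and clones 2 and 3), 11 were listed, and chance lists about 1 in 20. In clone 3, library 1 stood apart from libraries 2 to 4 for the summed TPM of all 83 genes (19842), for ATP5MC1 of the c ring (185.6 TPM), ATP5H (714.6 TPM), COX6C of complex IV (475.6 TPM) and the assembly factor NDUFAF4 (15.2 TPM). In the same clone, library 4 stood apart for the sum of complex I (6105 TPM), the sum of complex II (665 TPM) and NDUFA12 (372 TPM). In clone 2, library 3 stood apart for ATP5B (919.8 TPM). In fibroblasts, the assembly factor NDUFAF1 stood apart in library 3 (14.97 TPM) and NDUFAF2 in library 1 (7.78 TPM).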

How the results depend on the processing

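Percentages in this paragraph are the share of all genes tested that were called in either direction under the same setting. For the clones against fibroblasts, from 54 to 62 genes passed over all alternatives (57 as reported, 54 to 59 with 1 library left out). The share was 74.6% as reported, 64.5% to 76.4% over all alternatives and 71.2% to 75.6% with 1 library left out. Against fibroblast libraries 3 and 4 alone, the log2 fold change turned positive for COX6A1 (0.98), ATP5PD (0.83), UQCR10 (0.61), ATP5MF (1.802), COX5B (1.61), NDUFAB1 (0.79) and SDHB (0.78). Against libraries 1 and 2 alone, that of NDUFA13 turned negative (-0.41). NDUFA4L2 changed sign between cardiomyocytes and neural progenitors without the 2 libraries that go against their labels, to -3.41, and to -1.31 with limma as well. Clone 1 against clone 2 (4 genes, 9.31%) gave 8 with DESeq2 (15.3%) and 7 with limma at either pseudocount (12.2% and 11.9%). It gave 12 with only the groups compared (11.2%) and 1 to 9 with 1 library left out (4.34% to 12.2%). Clone 1 against clone 3 (3 genes, 6.7%) gave 7 with DESeq2 (12.8%) and 7 with only the groups compared (6.35%). It gave 0 to 7 with 1 library left out (2.95% to 9.4%). Clone 2 against clone 3 (1 gene, 4.22%) gave 2 with DESeq2 (8.48%), 0 with no filter (3.21%) and 0 with limma (7.18% and 5.09%). It gave 12 with only the groups compared (17.1%) and 0 with any library left out (2.24% to 3.73%). Day 1 against day 0 (27, 40.1%) gave 14 and 12 with limma at pseudocounts of 1 and 0.1 (36% and 35.7%). It gave 16 with only the groups compared (36.1%) and 6 to 45 with 1 library left out (31.6% to 47.8%). Day 2 against day 1 (5, 26.2%) gave 11 with limma (23.7% and 24.5%) and 2 with only the groups compared (16.1%). It gave 4 to 14 with 1 library left out (20.3% to 28.6%). With 1 library left out, day 3 against day 2 (52, 51.2%) gave 42 to 57 (43.8% to 51.1%). Endothelial cells (31, 47.7%) then gave 22 to 26 (40.1% to 43.2%). With all clone 8 libraries in 1 fit, these 4 comparisons gave 0, 0, 5 and 1 (14%, 8.08%, 25.4% and 21.2%). They gave 24, 4, 53 and 29 once the 2 libraries were taken out of that fit (39.5%, 25.5%, 50.8% and 47.4%). Cardiomyocytes against day 0 (17, 41.7%) gave 4 with only the groups compared (25.2%) and 68 without the 2 libraries (62.4%). They gave 50 with limma as well (62.1%) and 5 to 40 with 1 library left out (31.4% to 48.1%). Neural progenitors (5, 42.7%) gave 15 and 16 with limma (41.8% and 39.7%) and 2 with only the groups compared (23.8%). They gave 57 without the 2 libraries (64.4%), 53 with limma as well (66.8%) and 2 to 44 with 1 library left out (32.9% to 52.5%). Between these lineages (0, 0%), 78 passed without the 2 libraries (64.6%) and 65 with limma as well (68.3%). With 1 library left out 0 to 64 passed (0% to 27.4%).

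Replicate numbers were not taken as pairs in the main fits, and in no comparison did every same-numbered pair correlate above 0.1. Libraries numbered 1 did correlate along the clone 8 course: 0.206 for days 0 and 1, 0.311 for days 1 and 2 and 0.174 for days 2 and 3. The lowest same-numbered correlation in these steps was 0.0691, 0.0616 and 0.00443. Each day 1 library correlated most with the day 0 library of its own number (0.206, 0.094 and 0.0691). This did not hold at every step: day 2 library 2 correlated more with day 1 library 3 (0.111) than with day 1 library 2 (0.0616). Whether libraries of 1 number were handled together was not tested. With the number as a replicate block, day 2 against day 1 gave 12 genes (31.8% of all genes), cardiomyocytes 11 (38.9%) and clone 2 against clone 3 0 (3.22%). The other comparisons stayed within 1.5 times their counts. Among these, day 1 gave 34 (45.3%), day 3 57 (55.2%) and endothelial cells 39 (52.7%). Without the block they had given 27 (40.1%), 52 (51.2%) and 31 (47.7%). The summed level relative to day 0 moved beyond the replicate spread on the CPM scale in clones 1 to 3 and on days 1 to 3. Values under alternatives were sorted for single genes, medians of the set and summed levels. Of these, 2863 stayed the same: a gene kept its call, or a median or summed level shifted by less than the replicate spread. Another 204 lost the call, 146 gained it, 21 moved beyond that spread and 10 changed sign. Except where given, the cause was not tested. A planned search of promoters for motifs was not run, since no promoter sequences were used here. Depth limits COX8H and NDUFA4L2. ATP5PD was at 0 also in deep libraries, such as clone 1 library 3 with 28630895 counts, and its reads may be split with ATP5H.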
